A study of Mus musculus with 12 samples.

Results

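The 10 genes described here belong to polyamine and iron metabolism, pathways known for control at the level of translation or decay: Odc1, Amd1, Oaz1, Azin1, Sat1, Srm, Sms, Fth1, Ftl1 and Tfrc. They were taken from a list by symbol, and each has 1 row among the 55335 gene rows of the deposited counts. Thymocytes of 6-week-old mice, wild type (WT) or knockout (KO) for the microRNA pair miR-181a/b-1, were studied with RNA-seq libraries and with ribosome footprint libraries, the latter made from mRNA fragments shielded by ribosomes. All 4 groups, of 3 libraries each, came from cells placed in 0.1 mg/ml cycloheximide, a drug that stalls ribosomes. The labels number the libraries 1 to 3 in each group and give no strain, sex or thymocyte subset. They do not say whether the numbers stand for separate mice or which libraries share one, so p-values measure the spread between these libraries, which may be technical.

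Polyamines are small organic cations that dividing cells need for nucleic acid function and translation. Their synthesis runs from ornithine to putrescine (Odc1), spermidine (Srm) and spermine (Sms), with propylamine groups supplied through Amd1, while Sat1 opens the way back by acetylation. Cells hold the pool steady through translation: antizyme (Oaz1), made by a ribosomal frameshift that polyamines favour, sends ornithine decarboxylase to the proteasome, and Azin1 binds antizyme away. Iron supply is set in a comparable way: when iron is scarce, iron regulatory proteins bind RNA hairpins that block translation of ferritin (Fth1 and Ftl1) and protect the mRNA of the transferrin receptor (Tfrc). In the thymus, proliferating thymocytes are known to carry much transferrin receptor.

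One short sequence is shown because the Amd1 mRNA is a textbook case of control by a small upstream reading frame. Whether the frame has a part in the Amd1 values given here was not tested. RefSeq windows (build GRCm38.p6), which reach 50 bases past each annotated start, exist for 8 of the 10 genes. The windows of Amd1 (chr10:40302151-40302180, minus strand) and of its near copy Amd2 (chr10:35711856-35711885, minus strand) hold the same frame, shown in capitals from its ATG to its stop within a short run near the start of the mRNA:
Amd1: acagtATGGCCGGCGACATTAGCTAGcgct
Amd2: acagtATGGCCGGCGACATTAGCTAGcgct
The frame has 6 codons before its stop and spans bases 14 to 34 after the annotated Amd1 start. A frame that opens with ATG and closes within the first 50 bases, read on the transcript's strand, occurs in 11.7% of all 32851 windows, and this frame in 2 of them. Among the other listed genes, such frames lie in the windows of Ftl1 and Fth1 (1 of its 2 windows). The match is a description and the counts do not say where in a transcript a footprint lay.

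The libraries held 4479182 to 8180286 reads in genes for RNA-seq and 4069968 to 17859770 for footprints. Levels are given as CPM, read counts divided by library size with TMM factors within each assay, and are not compared between genes because no transcript lengths were used. The row of the deleted Mir181a-1 fell in KO footprints, from between 132 and 166 CPM in WT to between 0.463 and 1.04 CPM in KO, but had only 0.961 to 5.10 CPM in the RNA-seq libraries of both genotypes, with overlap, so it does not check the RNA-seq labels. In the deposited counts the WT and KO libraries of the same number deviate from their group means in opposite directions (correlations of -0.985 to -0.954 across 8010 genes in RNA-seq and -0.989 to -0.985 across 8643 genes in footprints). Such mirrored deviations are what remains when the mean over a WT and a KO library of the same number is removed. The authors call the counts adjusted, and whether they took this step is not stated in the sources at hand. If they did, fits without the replicate number as a block overstate the residual degrees of freedom, and their SE and FDR values are too small. FDR values with that block are therefore given where it ends a call. Whatever the adjustment, the main SE of some genes was far under that of other fits. For Srm, KO against WT, it was 0.12 in RNA-seq, against 0.24 with the block and 0.27 in DESeq2. In footprints the Srm values were 0.05, 0.12 and 0.12, while those of Fth1 were close, at 0.11, 0.12 and 0.10. Defining thymocyte markers (Ptprc, Cd3e, Cd4, Cd8a, Cd8b1, Rag1, Ptcra and Lck) were detected in every group, at a summed 13784 to 15662 CPM in RNA-seq. Xist was at 0.648 CPM or less in all 12 libraries and the Y-linked genes Ddx3y, Eif2s3y, Kdm5d and Uty each at 47.2 CPM or more, so the X-linked genes Sat1 and Sms were read from male cells in both genotypes.

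**Figure D1:**
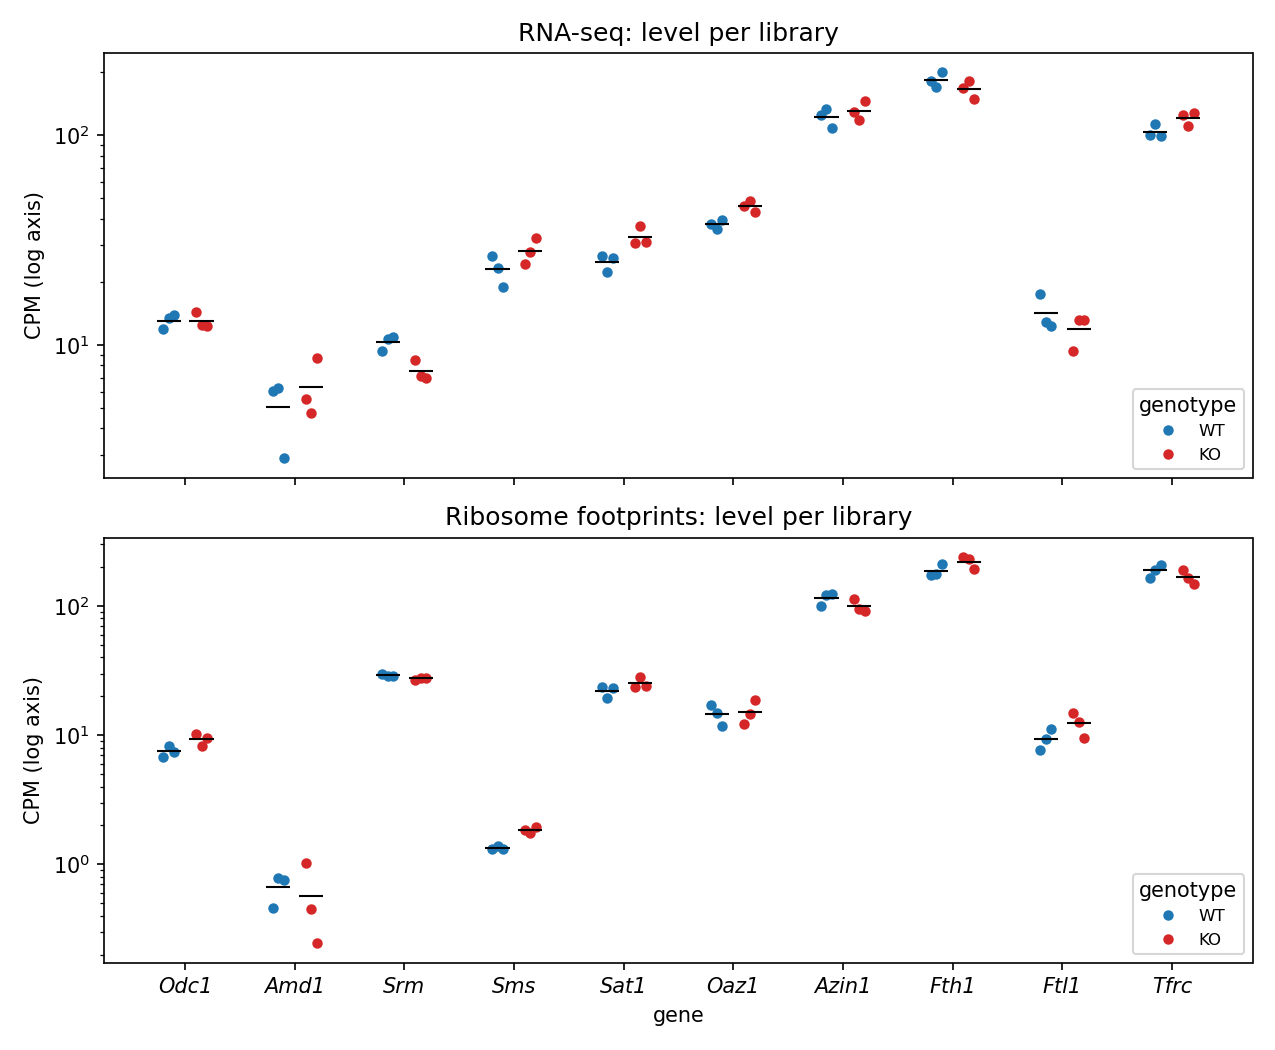
Level of each of the 10 genes in every library, in CPM on a log axis, for RNA-seq (top) and ribosome footprints (bottom). Points are libraries, blue for WT and red for KO, and black bars are group means of 3 libraries. Sms and Amd1 drop from the RNA-seq panel to the footprint panel, while Srm and Tfrc stand higher in footprints, and WT and KO points of most genes overlap.

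The first comparison asked how many footprints each gene had for its RNA in unmodified (WT) thymocytes. The genes lay far apart, within the polyamine pathway too: Srm had 3.22 times the footprint to RNA ratio of the median gene and Tfrc 2.07 times, while Oaz1 had 0.449 times and Sms 0.0681 times. Odc1 lay moderately lower, at 0.658 times, and Azin1, Sat1, Fth1 and Ftl1 were not called. The ratio is the log2 difference of footprint and RNA CPM minus that of the median of 11854 genes, tested with edgeR's quasi-likelihood test against the median gene. Of 9 listed genes tested, 2 were called higher and 3 lower (FDR under 0.05), where 42.1% of all genes tested were called higher and 41% lower, or 83.2% in either direction, so a call by itself says little here and the sizes carry the result. With the replicate block within each assay the same 5 genes were called, where 75.1% of all genes were, and 6 of the 9 had an unadjusted p under 0.05 (83.9% of all genes did). In KO, 6 of the 9 were called, where 81.5% of all genes were. The median log2 ratio of the 9 was 0.03, against 0 for all genes. CPM values of the 2 assays are set side by side below as description only. Totals of the 2 assays are not comparable, and the share of all genes without overlap between assays was not counted.

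Spermine synthase, Sms, had the lowest ratio of the 9. Its RNA stood at 26.6, 23.3 and 18.9 CPM in the WT libraries and its footprints at 1.31, 1.4 and 1.32 CPM. All 3 footprint values lay far under all 3 RNA values. The log2 ratio was -3.88 (SE 0.17, edgeR FDR 2.42e-10), and 1.85% of the genes tested lay lower. In KO it was -3.78 (SE 0.18), with RNA at 24.3, 27.8 and 32.3 CPM and footprints at 1.85, 1.75 and 1.96 CPM. Reads that align to several places were set apart in the counting, and the pseudogene row Sms-ps took 18 footprint reads in WT beside 62 for Sms, but only 4 RNA-seq reads beside 474. With both rows summed the log2 ratio in WT was -3.57 from mean CPM, against -3.90 for Sms alone. The part of reads with several alignments in the low value was not tested.

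Spermidine synthase, Srm, which makes the substrate of Sms, stood at the other end. Its RNA was at 9.34, 10.7 and 11 CPM in WT and its footprints at 29.9, 28.7 and 28.9 CPM, with no overlap. The log2 ratio was 1.69 (SE 0.08, edgeR FDR 5.8e-10) and exceeded that of 90.9% of genes. Between Srm and Sms, enzymes of successive steps, the ratio differed by 5.56 on the log2 scale (combined SE 0.19), or 47.3-fold. A combined SE, here and below, joins the SEs of 2 ratios as if independent, though both genes were read in the same libraries. It carries over any shortfall of those SEs and is a rough guide only. In KO the Srm ratio was 2.03 (SE 0.09).

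Amd1, the decarboxylase of S-adenosylmethionine that carries the frame shown above, had too few footprint reads to pass the filter on low counts, 30 in WT and 19 in KO. Its RNA was at 6.02, 6.25 and 2.88 CPM in WT and its footprints at 0.457, 0.781 and 0.756 CPM. Every footprint value lay under every RNA value. In the fit without the filter the log2 ratio was -2.68 (SE 0.37, edgeR FDR 5.57e-06), and 12% of the 24960 genes of that fit, many of them with few reads, lay lower. The near copy Amd2 had 13 reads over all 12 libraries, and Amd1 and Amd2 cannot be fully separated where reads align to both.

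Odc1, the rate-limiting enzyme of the pathway, had 11.9, 13.5 and 13.9 CPM in WT RNA-seq and 6.80, 8.32 and 7.38 CPM in WT footprints. The footprint values were all lower. Its log2 ratio was -0.60 (SE 0.12, edgeR FDR 0.000371) in WT and -0.34 (SE 0.13) in KO, near the lower part of the middle range, with 32.2% of genes below it. Azin1, a relative of ornithine decarboxylase without its activity, lay at 0.11 (SE 0.11, edgeR FDR 0.377), higher than Odc1 by 0.71 (combined SE 0.16). Sat1, the acetyltransferase of polyamine breakdown, lay at 0.03 (SE 0.11, edgeR FDR 0.842). Another catabolic enzyme, the oxidase Paox, lay far lower, at -2.18 (SE 0.18).

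The antizyme gene Oaz1 had 37.7, 35.9 and 39.5 CPM in WT RNA-seq and 17.0, 14.8 and 11.8 CPM in WT footprints. Its log2 ratio was -1.15 (SE 0.13, edgeR FDR 2.38e-06) in WT and -1.48 (SE 0.14) in KO. The second antizyme gene, Oaz2, was lower still at -1.99 (SE 0.17, edgeR FDR 1.32e-07), so both antizyme mRNAs carried few footprints for their RNA while their inhibitor's mRNA, Azin1, was near the median gene. Azin1 exceeded Oaz1 by 1.26 (combined SE 0.17). The pseudogene row Oaz1-ps held 21 RNA-seq and 44 footprint reads in WT, beside 784 and 689 for Oaz1, and with both summed the ratio was -1.12 from mean CPM. Oaz3 had 3 reads in all.

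Of the iron genes, Tfrc had 101, 113 and 98.8 CPM in WT RNA-seq and 166, 190 and 209 CPM in WT footprints. The footprint values were all higher. The log2 ratio of this receptor was 1.05 (SE 0.10, edgeR FDR 5.69e-07) in WT and 0.64 (SE 0.10) in KO. The ferritin chains lay close to the median gene: Fth1, the heavy chain with ferroxidase activity, at 0.22 (SE 0.10, edgeR FDR 0.0657) and Ftl1, the light chain, at -0.41 (SE 0.19, edgeR FDR 0.0575). Fth1 had 181, 170 and 200 CPM in WT RNA-seq and 173, 177 and 211 CPM in footprints, and Ftl1 17.4, 12.9 and 12.3 CPM against 7.71, 9.27 and 11.3 CPM. In KO, Fth1 was called higher (0.59, SE 0.11, edgeR FDR 0.000207) and Ftl1 had the other sign (0.28, SE 0.20). The Fth1 ratio in WT also passed without RNA_WT replicate 3 (FDR 0.0414) or RF_WT replicate 1 (0.0494), and that of Ftl1 without replicate 3 of either assay (0.0364 and 0.0295), so both are borderline. With 1 WT library left out, Ftl1 ran from -0.52 to -0.26 and, of the polyamine genes, Azin1 from 0.0106 to 0.19. Fth-ps2, a ferritin pseudogene row, held 105 RNA-seq and 175 footprint reads in WT, beside 3821 and 8429 for Fth1.

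**Figure D2:**
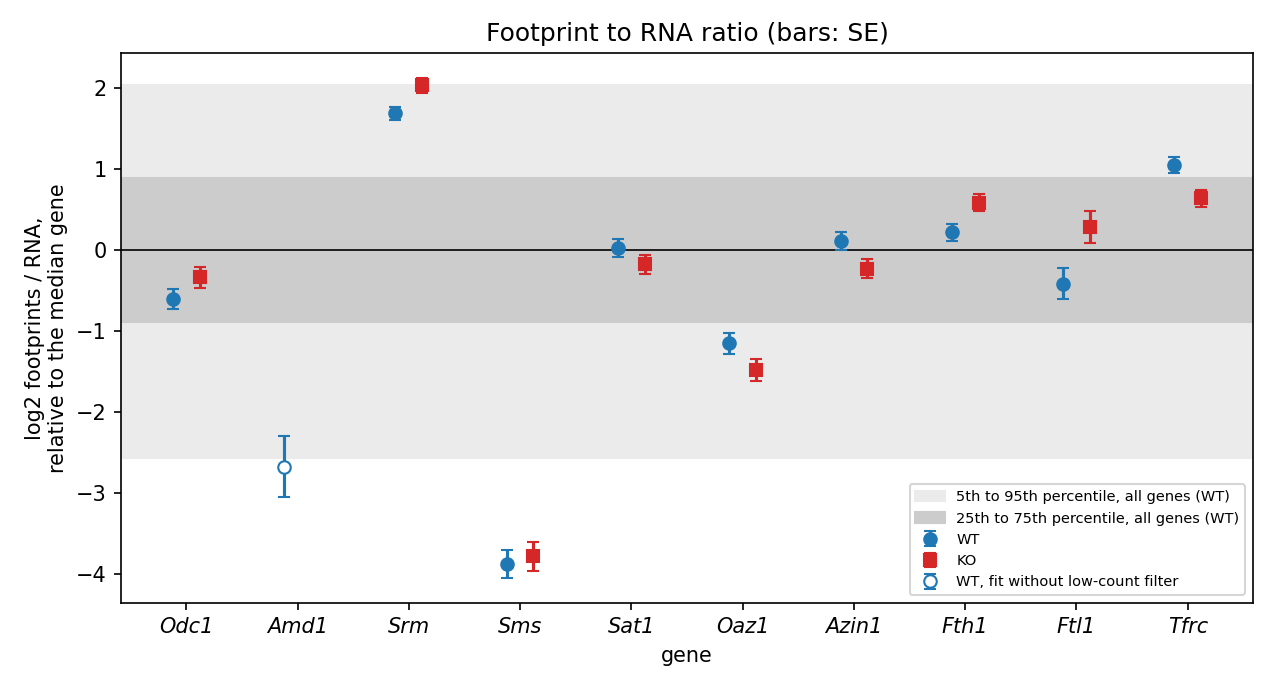
Footprint to RNA ratio of the 10 genes in WT (blue) and KO (red), on a log2 scale relative to the median gene, with bars for the SE of the fit over 12 libraries. The hollow point is Amd1 in the fit without the filter on low counts, and bands give the 5th to 95th and 25th to 75th percentiles of all 11854 genes in WT. The Amd1 point comes from a fit of 24960 genes, in which 12% lay lower, and is not to be set against the bands. Sms at -3.88 lies under the wide band and Srm at 1.69 near its top.

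The ratio has limits that touch each gene. RNA-seq reads cover untranslated regions and footprints mostly do not, and transcript lengths were not used. No source used here says whether reads in untranslated regions were counted. Where they were, a long untranslated region would lower the ratio, and its part was not tested. Without centring on the median gene, all ratios move by -0.20. Mean sums of cell-type markers also differed between the assays in WT. In footprints and RNA-seq, macrophage and myeloid markers summed to 431 and 97.1 CPM, and thymic epithelium markers to 79.1 and 24.2 CPM. Thymocyte markers summed to 21612 and 14966 CPM, and erythroid markers, whose sum went the other way, to 57.9 and 83.4 CPM. Much of that erythroid sum was Hbb-bs, at 20.6 and 45.1 CPM. Hba-a1 (13.0 and 6.42 CPM) and Alas2 (6.73 and 5.75 CPM) of the same list were higher in footprints. Whether both assays sampled the same mix of cells was not tested, nor was its part in the ratios.

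The wider pathways, from lists of 82 further genes, showed a like spread. Of 64 tested, 36 were called higher and 20 lower than the median gene, with a median log2 ratio of 0.55. Over all genes 42.1% were called higher and 41% lower, 83.2% in all, so the counts by list that follow are descriptions and the values carry the account. Methionine salvage, which recycles the by-product of Srm and Sms, was called higher in 5 of 6 genes tested and lower in none (all genes 42.1% and 41%), with Apip at 2.67 and Got1 at 1.95. Of the 4 hypusine genes, 2 were called higher and 2 lower: Eif5a, the factor whose lysine is modified with spermidine, was at 2.19 and Dohh, the enzyme that completes the modification, at -1.55. In polyamine transport and supply, Slc3a2, an amino acid transporter subunit also linked to polyamine export, was at 2.31 and Oat, an ornithine aminotransferase, at 2.21.

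In the iron lists, the iron regulatory protein genes lay apart, with Aco1 at 1.63 and Ireb2 at -0.61, a difference of 2.24 (combined SE 0.15). Of 7 other genes known for an iron-responsive element, 4 were called higher and 3 lower (all genes 42.1% and 41%), among them Cdc42bpa at -1.44 and Cdc14a at -1.39. The mitochondrial iron importer Slc25a37 was the lowest of the further genes tested at -3.10, with 231 to 244 CPM in WT RNA-seq and 22.8 to 25.2 CPM in footprints. Its paralog Slc25a28 was at -1.22. Of the iron-sulfur cluster assembly genes, Isca1 was at -2.50 and Ciao1 at 2.12. Pcbp1, an iron chaperone for ferritin, was at 2.42, and Ncoa4, the receptor for ferritin breakdown, at -1.67. The iron carrier Trf, which binds the Tfrc product, was at 2.29, and the reductase Cybrd1 at -1.15. In heme synthesis and breakdown, 7 of 12 genes tested were called higher and 2 lower (all genes 42.1% and 41%), with Alad at 2.40 and Alas1 at 2.09.

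**Figure D3:**
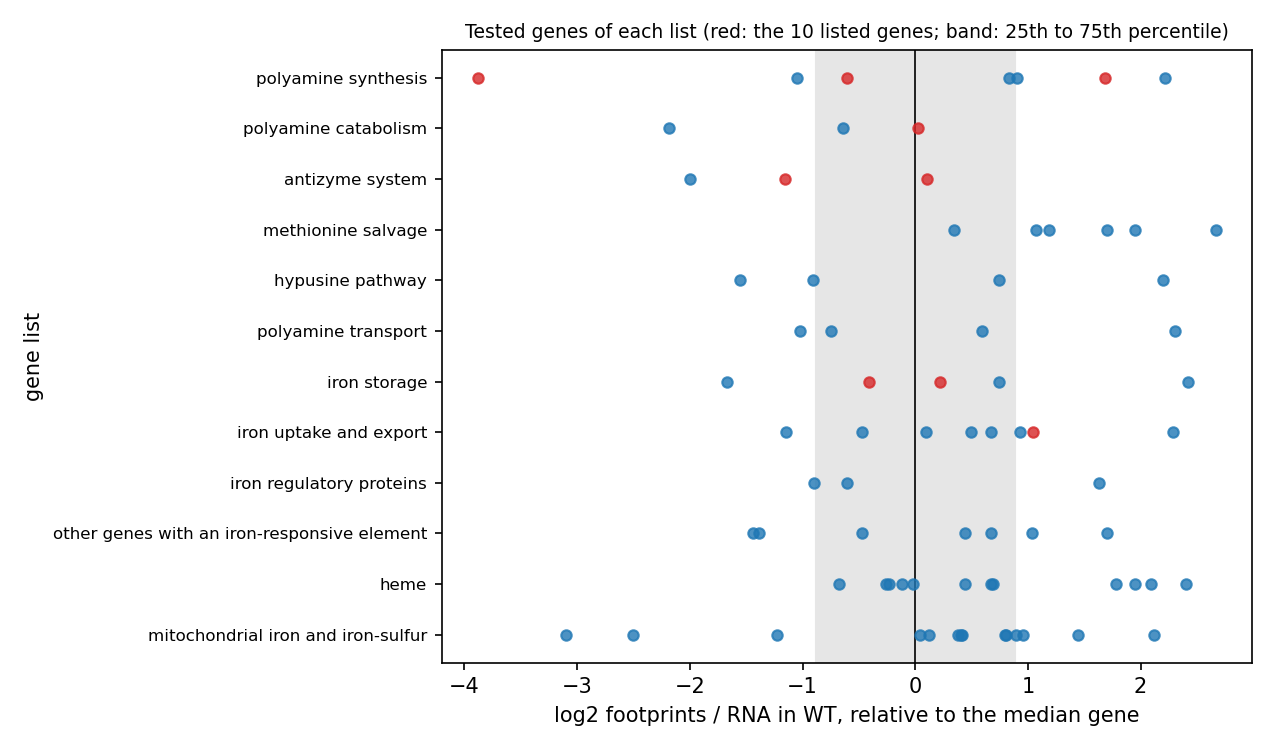
Log2 footprint to RNA ratio in WT, relative to the median gene, for the tested genes of each polyamine and iron list. Red points are the listed genes that passed the filter, blue points other genes, and the band holds the 25th to 75th percentile of all genes. Methionine salvage lies to the right of 0 in all 6 genes, and Sms at -3.88 is the leftmost point.

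The second comparison asked whether loss of miR-181a/b-1 changed the RNA of these genes. None of the 10 was called in RNA-seq by edgeR or by DESeq2, where edgeR called 6.91% and DESeq2 3.9% of 13652 genes (with the replicate block in edgeR 0 of 10, and 0.806% of all genes), and 4 had an unadjusted p under 0.05 (23.8% of all genes did). Their median log2 fold change, KO over WT, was 0.16, against 0.00 for all genes tested. Fewer cells of a type and less RNA per cell cannot be told apart in these bulk samples.

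Of the 10 genes, 3 had no overlap between genotypes in RNA-seq, as had 30.9% of all genes. Srm had 9.34, 10.7 and 11 CPM in WT and 8.46, 7.08 and 6.96 CPM in KO, lower in all 3 KO libraries (log2 fold change -0.46, SE 0.12, edgeR FDR 0.073). Sat1 had 26.4, 22.2 and 25.9 CPM in WT and 30.6, 36.8 and 31.0 CPM in KO, all higher (0.39, SE 0.11, edgeR FDR 0.0846). Oaz1 had 37.7, 35.9 and 39.5 CPM in WT and 45.8, 48.6 and 43.3 CPM in KO, all higher (0.28, SE 0.07, edgeR FDR 0.0724). With the replicate block their FDR values were 0.587, 0.5 and 0.62. Tfrc was at 0.22 (SE 0.08, edgeR FDR 0.171), with 126, 110 and 127 CPM in KO overlapping WT.

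The remaining 6 genes overlapped too. Odc1 differed by 0.00 (SE 0.11), with 14.4, 12.5 and 12.3 CPM in KO. Amd1 had the widest error, at 0.39 (SE 0.34), and its highest value was 8.70 CPM in KO replicate 3. Sms (0.30, SE 0.16), Azin1 (0.10, SE 0.11), Fth1 (-0.14, SE 0.09) and Ftl1 (-0.26, SE 0.19) were not called. With 1 RNA-seq library left out, Amd1 ran from 0.0496 to 0.59, Azin1 from 0.0139 to 0.17 and Sms from 0.17 to 0.41. Fth1 ran from -0.21 to -0.0778 and Ftl1 from -0.37 to -0.10. In the authors' deposited table the adjusted p of these genes in RNA-seq ran from 0.236 for Sat1 to 0.997 for Odc1.

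Among the 64 further pathway genes tested in RNA-seq, 1 was called higher and 2 lower, all 3 lost with the replicate block. Over all genes 6.91% were called, so the count of 3 is no result about these lists. Slc25a37 rose by 0.30 on the log2 scale (edgeR FDR 0.024), with WT at 238 ± 6.38 CPM and KO at 293 ± 6.55 CPM (SD, n = 3). Paox, an oxidase of acetylated polyamines, fell by 0.75 on the log2 scale (edgeR FDR 0.0224), with WT at 7.07 ± 0.51 CPM and KO at 4.27 ± 0.43 CPM (SD, n = 3). Got1 fell by 0.45 on the log2 scale (FDR 0.0303). As same-numbered WT and KO libraries mirror each other, the 2 SDs of a gene, here and for Ireb2 below, are not independent measures of spread. With the replicate block the FDR values were 0.475, 0.379 and 0.499, and leaving out any 1 of the 6 RNA-seq libraries also ended each call. The 8 markers of erythroid cells, which hold much iron and heme machinery, summed to 76.3 to 92.0 CPM in WT and 46.7 to 59.3 CPM in KO RNA-seq, and their part in the iron genes' values was not tested.

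The third comparison asked the same of footprints. None of the 9 genes tested was called by edgeR or DESeq2, where edgeR called 17.6% and DESeq2 9.24% of 13509 genes (with the replicate block in edgeR 0 of 9, and 3.02% of all genes), and 2, Ftl1 and Odc1, had an unadjusted p under 0.05 (33.1% of all genes did). The median log2 fold change was 0.21, against -0.01 for all genes. Of the 9, 2 had no overlap, as had 38.1% of all genes.

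Sms had 1.31, 1.4 and 1.32 CPM in WT footprints and 1.85, 1.75 and 1.96 CPM in KO, higher in all 3 KO libraries but from 62 and 55 reads (log2 fold change 0.43, SE 0.13, edgeR FDR 0.257). Its SE was 0.38 with the replicate block and 0.45 in DESeq2, so 0.13 understates the error at these few reads. Srm had 29.9, 28.7 and 28.9 CPM in WT and 26.8, 27.9 and 27.7 CPM in KO, all slightly lower (-0.09, SE 0.05, edgeR FDR 0.348). The direction of Srm was thus lower in both assays, by a smaller value in footprints.

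Of the genes that overlapped between genotypes, Ftl1 had the largest difference. Its values were 7.71, 9.27 and 11.3 CPM in WT footprints and 14.8, 12.7 and 9.55 CPM in KO (0.48, SE 0.18, edgeR FDR 0.12), with 1 KO library inside the WT range. Ftl1 was called without the filter on low counts (FDR 0.0455). Fth1 had 173, 177 and 211 CPM in WT and 238, 232 and 192 CPM in KO (0.25, SE 0.11, edgeR FDR 0.159). Both chains mirror their replicate numbers: the WT library with the highest value shares its number with the KO library with the lowest.

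Tfrc had 166, 190 and 209 CPM in WT footprints and 188, 166 and 149 CPM in KO (-0.16, SE 0.11, edgeR FDR 0.377). Odc1 had 6.80, 8.32 and 7.38 CPM in WT and 10.3, 8.23 and 9.55 CPM in KO (0.30, SE 0.12, edgeR FDR 0.151). Sat1 (0.21, SE 0.11), Azin1 (-0.20, SE 0.11) and Oaz1 (-0.02, SE 0.18) were not called. With 1 footprint library left out, Tfrc ran from -0.24 to -0.0812 and Sat1 from 0.0973 to 0.29. Amd1, not tested, had 0.457 to 0.781 CPM in WT and 0.245 to 1.02 CPM in KO. In the authors' deposited table the lowest adjusted p among these genes in footprints was 0.12, for Fth1.

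**Figure D4:**
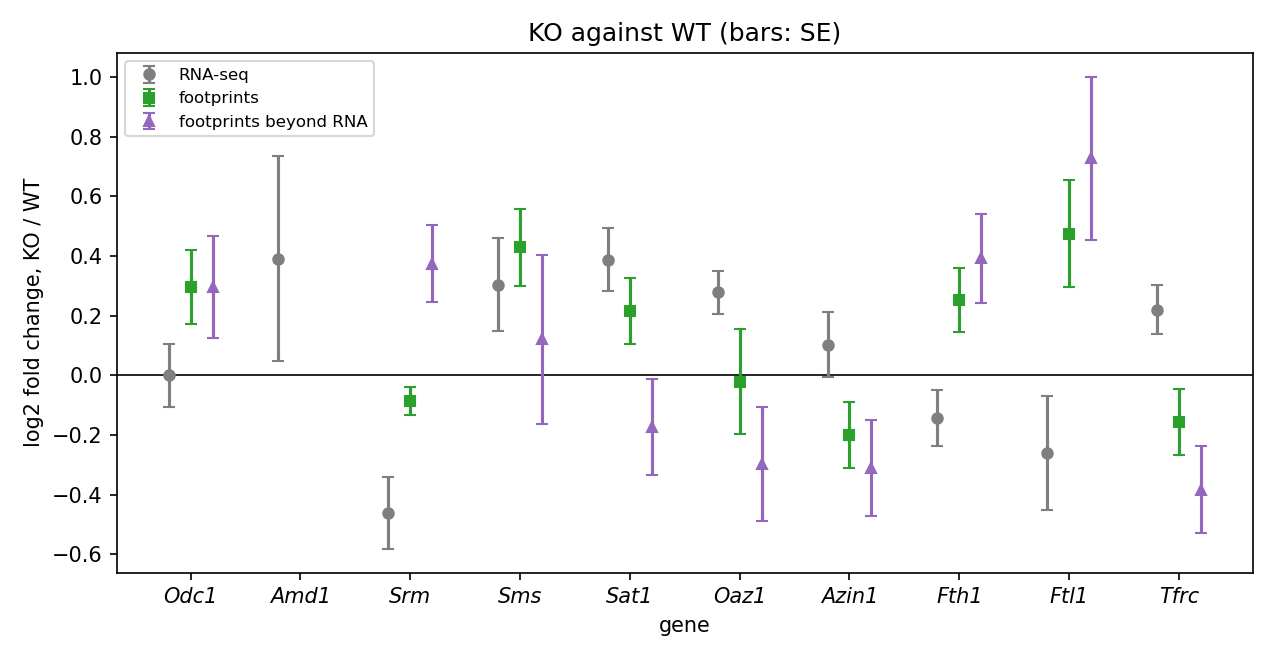
Log2 fold change of KO over WT for the 10 genes in RNA-seq (grey), in footprints (green) and in footprints beyond RNA (purple), with bars for the SE. Amd1 has an RNA-seq value only, because it did not pass the filter in footprints. None of the values passed an FDR of 0.05. The purple points of Ftl1, Fth1, Srm, Odc1 and Sms lie above 0, and those of Tfrc, Azin1, Oaz1 and Sat1 below it.

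Among the 69 further pathway genes tested in footprints, 8 were called higher and 4 lower in KO, and none with the replicate block. Over all genes 17.6% were called, and 12 of 69 is close to that share, so the count is no result about these lists. The largest rise was in Oaz2, from 3.08, 3.07 and 3.59 CPM in WT to 5.83, 5.77 and 4.90 CPM in KO, with no overlap. The log2 fold change was 0.81 (SE 0.11) at an edgeR FDR of 0.00583, or 0.138 under the replicate block. Its RNA was at 17.1, 11.8 and 15.4 CPM in WT and 13.4, 19.6 and 15 CPM in KO, overlapping (0.09, SE 0.19). The Oaz2 call was kept without any 1 of the 6 footprint libraries. Those fits had no block, so they do not bear on its loss under the replicate block.

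Slc25a28 (0.46), the heme synthesis gene Uros (0.39), the phosphatase gene Cdc14a (0.34), the lysosomal polyamine exporter Atp13a2 (0.20), Pcbp1 (0.20) and Oat (0.19), an ornithine aminotransferase, also rose. Each of these lost its call in 1 to 6 of the 6 omissions of a library. With the replicate block their FDR values ran from 0.157 for Slc25a28 to 0.414 for Atp13a2.

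The falls were in Alas2 (-0.74), Ireb2 (-0.22), Ciao2b (-0.21) and Got1 (-0.20). Alas2, the erythroid enzyme that opens heme synthesis, went from 7.08, 7.42 and 5.67 CPM in WT to 3.89, 3.69 and 5.63 CPM in KO (SE 0.17, edgeR FDR 0.03, with the block 0.202). The erythroid markers, Alas2 among them, summed to 40.7 to 76.7 CPM in WT and 35.4 to 75.2 CPM in KO footprints, which overlap, and their part was not tested. Ireb2, an iron regulatory protein gene, had WT libraries at 115 ± 4.53 CPM and KO libraries at 98.2 ± 4.21 CPM (SD, n = 3, edgeR FDR 0.0259, under the block 0.244), while Aco1 did not pass (0.07, SE 0.05). The calls of Alas2 and Ireb2 were each lost in 4 of 6 omissions of a library, Ciao2b in 6 and Got1 in 5. The 8 macrophage and myeloid markers, cells known to recycle iron, summed to 417 to 457 CPM in WT and 365 to 405 CPM in KO footprints. In RNA-seq they summed to 92.8 to 105 CPM in WT and 85.6 to 98.4 CPM in KO, which overlap. In footprints Vcam1 had the largest difference of means, with 175 CPM in WT and 142 CPM in KO. Adgre1, Csf1r, C1qa and C1qb also had lower means in KO, while Lyz2, Cd68 and Spic had higher means. The part of these cells in the iron genes' values was not tested.

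The last comparison asked whether footprints changed beyond RNA, tested as a term for genotype by assay in 1 fit of the 12 libraries. None of the 9 genes was called by edgeR or DESeq2, where edgeR called 0.211% and DESeq2 0.388% of 11854 genes, and 4 had an unadjusted p under 0.05 (14% of all genes did). Those 4 were Ftl1 (0.73, SE 0.27, edgeR FDR 0.27), Fth1 (0.39, SE 0.15, FDR 0.272), Tfrc (-0.38, SE 0.15, FDR 0.271) and Srm (0.37, SE 0.13, FDR 0.278). The difference of KO from WT was thus higher in footprints than in RNA for both ferritin chains and Srm and lower for Tfrc, each without passing the test. With the replicate number within each assay as a block, all 9 had an FDR of 0.998, and 0.0169% of all genes were called.

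Odc1 was at 0.30 (SE 0.17), Sms at 0.12 (SE 0.28), Sat1 at -0.17 (SE 0.16), Oaz1 at -0.30 (SE 0.19) and Azin1 at -0.31 (SE 0.16). With 1 library left out, Sms ran from 0.0072 to 0.25, Sat1 from -0.29 to -0.096 and Oaz1 from -0.41 to -0.17. None of the 64 further pathway genes was called, and 0.72 for Oaz2 (SE 0.24, edgeR FDR 0.224) did not pass although its footprint change did in the test of footprints alone. For Aco1 the value was 0.09 (SE 0.09) and for Ireb2 -0.26 (SE 0.19).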

How the data were processed

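The authors deposited 2 tables of whole-number read counts by Ensembl gene ID, which they call adjusted without stating for what. The submitters' processing notes name HTSeq 2.0.3, STAR 2.7.10a, Bowtie2 2.5.1, FastQC and DESeq2 1.40.2, and no source used here gives the build, the annotation or whether strand was used. Their tables of KO against WT carry DESeq2's column names per the file headers, and 12 columns of per-library values in them were not used. Amd1 was matched by unversioned ID. Rows outside genes stayed out of library sizes. Genes held 27.0% to 28.5% of RNA-seq reads and 72.3% to 73.1% of footprint reads. Reads that met no annotated gene were 50.9% to 57.1% in RNA-seq and 5.32% to 6.39% in footprints. The part of this difference in the footprint to RNA ratios was not tested.

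Each assay was fitted with edgeR 4.0.16 in R 4.3.3 (TMM, filterByExpr with minimum count 10, quasi-likelihood test, Benjamini-Hochberg FDR under 0.05 over all genes). The interaction and the footprint to RNA ratio were fitted over 12 libraries with TMM within each assay; the ratio was centred on its median gene. SE is the log2 value divided by the square root of F. Fits were tested on simulated counts drawn independently for each library. These lacked the mirrored deviations of same-numbered libraries, so they cannot check the SE and FDR values of the main fits on that point. All 10 genes are named in each comparison, with further pathway genes called at FDR under 0.05 (up to 10 rises and 10 falls by size), Aco1, Ireb2 and Oaz2 whatever their values, and copy rows with at least 10 reads; 1 further gene called in footprints is counted but not reported here by name. Genes and lists were chosen with earlier results of these data known. Alternatives were RLE, DESeq2 1.42.0, no low-count filter, replicate blocks, other centring and omission of each library.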

Additional observations from a re-analysis of the deposited data

How the results depend on the processing

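Across 442 alternative values for single listed genes, 417 kept direction and side of the threshold, 9 passed it and 16 changed sign. All sign changes concerned values that were not called. In KO against WT they were Odc1 in RNA-seq, at -0.0001 with the replicate block and from -0.0787 to 0.0493 with 1 library left out, and Oaz1 in footprints, at 0.0125 with the block, 0.0169 under DESeq2 and from -0.1353 to 0.1116 with 1 library left out. In the footprint to RNA ratio, Azin1 was at -0.23 in KO, -0.0877 without centring and -0.0182 with centring on genes of average log2 CPM of 3 or more; Sat1 was at -0.18, -0.17 and -0.10, and from -0.0625 to 0.1083 with 1 WT library left out; Ftl1 was at 0.28 in KO. The count of listed genes called was 0 for KO against WT in RNA-seq, footprints and translation under all alternatives, except 1 (Ftl1) in footprints with no low-count filter; the cause was not tested. For the ratio it was 5, and 5 to 7 under the alternatives. With the replicate block 0 of the listed genes were called in RNA-seq, 0 in footprints, 0 for translation and 5 for the ratio. Same-numbered WT and KO libraries deviate oppositely, so the numbers tie these libraries together in the deposited values, though not by deviations in the same direction. Depth limits Amd1 and Sms most, with 49 and 117 footprint reads in all.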
